A study of Mus musculus with 6 samples.

Results

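The 9 genes described here encode transcription factors that set or mark the lineages of T cells: Tcf7, Lef1 and Bcl11b of the T lineage and its naive cells, Foxp3 and Ikzf2 of regulatory T cells, Tbx21 and Eomes of Th1 and cytotoxic cells, Gata3 of Th2 cells, and Tox of exhausted cells. They were chosen by gene symbol, with earlier results of these data known. All 9 were among the 29721 genes counted and all 9 passed the filter on low counts, which left 17652 genes for testing. Transcripts were counted by RNA sequencing in unsorted pancreas of 6 mice aged 3 months, 3 with wild-type Parp2 (WT) and 3 with PARP2 knocked out (KO), with 1 library per animal. All 6 mice carry Ela-myc, a transgene in which the elastase promoter of acinar cells drives Myc and from which pancreatic tumours arise, so no group lacks it. PARP2 is a nuclear enzyme that attaches ADP-ribose chains to proteins at DNA breaks. The tissue is labelled pancreas and the deposited counts are named preneoplastic, but the extraction protocol speaks of tumours. Which tissue each library holds is therefore uncertain. It is not stated in the labels what part of Parp2 was removed, in which cells, or which part of the organ was taken.

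T cell identity is built in layers. Tcf7 (the protein TCF-1), Lef1 and Bcl11b act in T cell development and stay on in naive T cells. After stimulation, lineage factors such as T-bet (Tbx21), GATA3 and FOXP3 steer helper T cells to their effector or regulatory fates, and TOX accompanies lasting stimulation. Several of these factors also work outside T cells, for example Tbx21 and Eomes in natural killer cells, Gata3 in type 2 innate lymphocytes and sympathetic neurons, and Lef1 in Wnt signalling in other tissues.

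Library totals were 28105021 to 32055565 counts. Levels are in CPM, each count set against the scaled library total. Parp2 had 40.5, 36.4 and 37.5 CPM in WT replicates 1, 2 and 3 and 14.4, 12.4 and 13.6 CPM in KO replicates 1, 2 and 3. It fell by 1.5 on the log2 scale (SE 0.097, edgeR adjusted p = 0.00201). The libraries differed in tissue content. The summed level of 10 acinar cell genes was 191560, 196660 and 134970 CPM in WT but 20222, 78852 and 87.7 CPM in KO replicates 1, 2 and 3, so KO replicate 3 was almost without the defining transcripts of the labelled tissue. Transcripts of Xist and Y-linked genes showed males in WT replicates 1 and 2 and KO replicate 1, and females in the rest.

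All 9 lineage factor genes were higher in KO, by log2 fold changes of 0.89 to 3.26 with a median of 2.12. In each of the 9, every KO library lay above every WT library. Over all genes tested, 28.0% were called higher (edgeR adjusted p under 0.05), 34.4% had all KO libraries above all WT libraries, and the median log2 fold change was 0.02. Because tissue was not sorted, more T cells in a sample and more RNA of these genes per cell cannot be told apart. The library is the unit of comparison (n = 3 each), and the 9 genes are not replicates of the genotype.

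**Figure D1:**
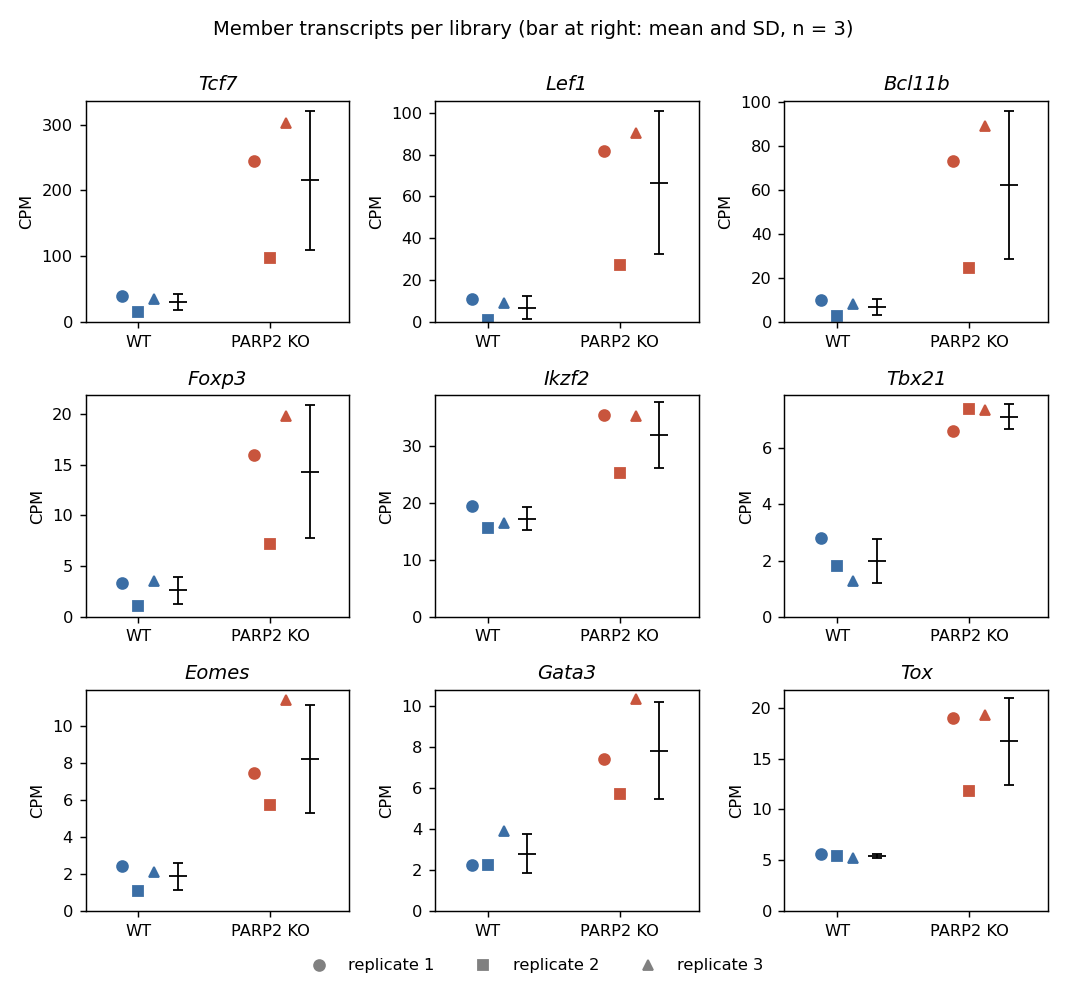
CPM of each lineage factor gene on a linear axis in the 3 WT (blue) and 3 KO (red) libraries, with the mean and SD of each group at the right of its points. KO replicate 2 is the lowest KO library for every gene but Tbx21, and WT replicate 2 stands well below the other WT libraries for Tcf7, Lef1, Bcl11b, Foxp3 and Eomes.

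The naive and pan-T factors had the largest differences. Tcf7 (ENSMUSG00000000782, chromosome 11, 52252371 to 52283014, minus strand, GRCm38) had 39.4, 15.9 and 34.2 CPM in WT and 245, 97.7 and 303 CPM in KO. The groups did not overlap, and the lowest KO library was still above the highest WT library by more than the whole WT range. The mean went from 29.8 ± 12.4 to 215 ± 106 CPM (SD, n = 3 per genotype). On the log2 scale this was a rise of 2.85 (SE 0.544, edgeR adjusted p = 0.00850).

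Bcl11b (ENSMUSG00000048251, chromosome 12, 107910403 to 108003602, minus strand), which commits thymic progenitors to the T lineage, had 9.90, 2.79 and 8.13 CPM in WT and 73.0, 24.6 and 89.1 CPM in KO. The order of libraries was that of Tcf7 within KO and within WT. Its log2 fold change was 3.16 (SE 0.666, edgeR adjusted p = 0.0117).

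Lef1 (ENSMUSG00000027985, chromosome 3, 131110471 to 131224356, plus strand), a relative of Tcf7 with the same type of DNA-binding domain, had 10.8, 0.774 and 9.13 CPM in WT and 81.9, 27.3 and 90.3 CPM in KO. WT replicate 2 held 18 counts of Lef1, against 275 and 265 in the other WT libraries, which is the widest WT spread of the 9 genes (3.14 units of log2(CPM + 0.5), the scale of all ranges between libraries given here, on which low levels differ less than on a plain log2 scale). Lef1 rose by 3.26 on the log2 scale (SE 0.948, 95% interval 0.92 to 5.61, edgeR adjusted p = 0.0316), and this was the weakest call of the 9. The call ended without WT replicate 1 (edgeR adjusted p = 0.0691), WT replicate 3 (0.0831), KO replicate 1 (0.0784) or KO replicate 3 (0.0512), with sex as a term (0.0639), and with no filter on low counts (0.0982). Lef1 shares 13.7% of its exon bases with Gm43352 on the opposite strand, which had 0 to 4 counts in WT and 10 to 41 in KO. The library kit named in the labels marks strand, but whether counting used it is not given in the sources used here.

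Foxp3 (ENSMUSG00000039521, chromosome X, 7573644 to 7595245, plus strand), the master regulator of regulatory T cells, had 3.29, 1.07 and 3.48 CPM in WT and 16.0, 7.13 and 19.8 CPM in KO. The groups did not overlap, and the library order within KO was again replicate 3, 1, 2. Its log2 fold change was 2.45 (SE 0.565, edgeR adjusted p = 0.0144). Foxp3 reads are partly uncertain, since its exons overlap Flicr on the same strand (18.6% of Foxp3 exon bases) and Ccdc22, Gm36995 and Ppp1r3f on the opposite strand (12.9%, 8.15% and 5.81%). Flicr had 4 to 15 counts in WT and 16 to 39 in KO, against 25 to 101 and 226 to 772 for Foxp3.

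Ikzf2 (ENSMUSG00000025997, chromosome 1, 69531214 to 69687245, minus strand) encodes Helios, found in many regulatory T cells. It had 19.6, 15.7 and 16.5 CPM in WT and 35.5, 25.2 and 35.3 CPM in KO. It rose by 0.89 on the log2 scale (SE 0.166, edgeR adjusted p = 0.00673), the smallest change of the 9, and 19.1% of all genes tested had a larger log2 fold change. Its level in WT was not low: per exon length only Tcf7 was higher.

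Tbx21 (ENSMUSG00000001444, chromosome 11, 97098071 to 97115331, minus strand), the factor of Th1 cells, had 2.82, 1.81 and 1.27 CPM in WT and 6.62, 7.38 and 7.38 CPM in KO. Here the 3 KO libraries were nearly level, with a range of 0.15 log2 units, against 1.63 for Tcf7. The log2 fold change was 1.86 (SE 0.312, edgeR adjusted p = 0.00501).

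Eomes (ENSMUSG00000032446, chromosome 9, 118478212 to 118486132, plus strand), the T-box relative of Tbx21 in memory and cytotoxic cells, had 2.47, 1.07 and 2.10 CPM in WT and 7.43, 5.74 and 11.4 CPM in KO. KO replicate 3 was highest and KO replicate 2 lowest, whereas KO replicates 2 and 3 were level for Tbx21. The log2 fold change was 2.12 (SE 0.401, edgeR adjusted p = 0.00704).

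Gata3 (ENSMUSG00000015619, chromosome 2, 9857078 to 9890034, minus strand), the factor of Th2 cells, had 2.27, 2.23 and 3.93 CPM in WT and 7.43, 5.71 and 10.4 CPM in KO. It rose by 1.48 on the log2 scale (SE 0.335, edgeR adjusted p = 0.0126). The highest WT library, replicate 3, also held 1373 counts of Dbh and 782 of Th, enzymes of catecholamine-making cells, against 0 to 1 and 1 to 28 counts in every other library. Without that library the log2 fold change of Gata3 was 1.79, and the part of such cells in its WT level was not tested.

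Tox (ENSMUSG00000041272, chromosome 4, 6686353 to 6991557, minus strand) encodes a nuclear factor of developing and exhausted T cells. It had 5.64, 5.46 and 5.27 CPM in WT and 19.0, 11.8 and 19.3 CPM in KO. Its WT libraries spanned 0.089 log2 units, the narrowest of the 9, and WT replicate 2 was not low. Tox rose by 1.61 on the log2 scale (SE 0.215), with the smallest edgeR adjusted p of the 9 (0.00303).

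Promoter windows were compared because these genes were higher together. RefSeq (GRCm38.p6) gave 12 windows for 7 of the 9 genes, each running from 250 bases before to 50 after an annotated start. Both strands were searched for the TCF/LEF motif CTTTGTT and its variant CTTTGAT, the GATA motif AGATAA, the RUNX motif TGTGGTT, the forkhead motif GTAAACA and the T-box motif GGTGTGA, and no matches overlapped. The windows below are the 4 that held a match, 1 each, with the match in capitals (AACAAAG is the reverse complement of the TCF/LEF motif, and TTATCT that of the GATA motif).
Foxp3 start at chrX:7579426-7579725 (plus strand): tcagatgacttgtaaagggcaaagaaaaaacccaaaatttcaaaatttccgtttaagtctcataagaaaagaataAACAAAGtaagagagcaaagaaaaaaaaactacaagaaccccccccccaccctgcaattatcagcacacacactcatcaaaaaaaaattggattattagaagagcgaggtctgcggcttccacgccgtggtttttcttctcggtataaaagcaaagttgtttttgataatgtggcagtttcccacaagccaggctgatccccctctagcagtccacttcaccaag
Foxp3 start at chrX:7580233-7580532 (plus strand): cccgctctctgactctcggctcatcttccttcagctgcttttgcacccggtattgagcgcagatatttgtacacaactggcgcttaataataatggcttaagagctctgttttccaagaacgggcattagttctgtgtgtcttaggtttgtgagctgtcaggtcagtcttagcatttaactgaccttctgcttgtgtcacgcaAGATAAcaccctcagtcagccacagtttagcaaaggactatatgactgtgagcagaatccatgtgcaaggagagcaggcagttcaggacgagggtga
Tcf7 start at chr11:52282546-52282845 (minus strand): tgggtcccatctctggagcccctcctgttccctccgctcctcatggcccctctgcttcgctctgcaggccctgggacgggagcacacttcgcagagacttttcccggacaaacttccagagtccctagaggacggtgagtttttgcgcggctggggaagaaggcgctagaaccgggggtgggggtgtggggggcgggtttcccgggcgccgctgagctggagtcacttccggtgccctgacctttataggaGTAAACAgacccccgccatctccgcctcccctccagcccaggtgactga
Lef1 start at chr3:131156044-131156343 (plus strand): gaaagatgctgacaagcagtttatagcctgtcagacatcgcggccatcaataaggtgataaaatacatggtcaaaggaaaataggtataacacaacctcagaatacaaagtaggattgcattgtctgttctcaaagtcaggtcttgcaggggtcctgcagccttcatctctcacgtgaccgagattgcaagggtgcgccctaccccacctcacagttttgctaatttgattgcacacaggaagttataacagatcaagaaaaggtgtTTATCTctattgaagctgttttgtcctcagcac
The TCF/LEF motif occurred in 1 of the 12 windows and in 5.85% of all 32851 RefSeq windows, the GATA motif in 2 and in 11.2%, and the forkhead motif in 1 and in 3.65%. The TCF/LEF variant and the RUNX and T-box motifs, found in 3.73%, 5.27% and 3.98% of all windows, were in none of the 12. Tcf7 and Lef1 each have other annotated starts, whose windows held no match. These are matches of letters and say nothing of binding.

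Levels of different genes can be set side by side only per exon length. In CPM per kilobase of exon, Tcf7 led in both groups, with 11.4 ± 4.71 in WT and 81.9 ± 40.3 in KO (SD, n = 3 each). In WT, Ikzf2 followed at 1.49 ± 0.176, and its libraries lay above those of Bcl11b at 0.856 ± 0.456. The next genes, Tbx21, Lef1, Tox, Gata3, Foxp3 and Eomes, had means from 0.790 down to 0.453, and the libraries of neighbours in this order overlapped. Every Tox library (lowest 0.693) lay above every Eomes library (highest 0.593). In KO, Bcl11b and Lef1 followed at 7.67 ± 4.13 and 7.57 ± 3.89. Foxp3, Tbx21, Ikzf2, Tox, Eomes and Gata3 followed with means from 3.13 down to 1.97, again with overlapping neighbours. Ikzf2 thus came next to Tcf7 in WT but had a lower mean than Bcl11b and Lef1 in KO, where its libraries overlapped those of Bcl11b, Foxp3 and Tbx21 among others.

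The 9 genes did not vary alike over the 6 libraries. The root mean square difference between centred log2(CPM + 0.5) profiles over the 6 libraries was smallest for Tcf7 and Bcl11b (0.19) and largest for Lef1 and Ikzf2 (1.68). Tcf7, Bcl11b, Lef1 and Foxp3 ranged over 1.41 to 1.83 log2 units among KO libraries, whereas Tbx21, Ikzf2, Tox, Gata3 and Eomes ranged over 0.15 to 0.93. Among 15070 other tested genes with a mean of at least 1 CPM, those nearest to Tcf7 were Cd3e, Trac and Cd28 (0.10 to 0.11), and those nearest to Bcl11b were Lat, Themis and Trac (0.13 to 0.18). Foxp3 was nearest to Adgrg5, Camk4 and Ubash3a (0.11 to 0.15) and Lef1 to Shisa3, Apol7c and Cd8a (0.30 to 0.37). Tox was nearest to Slamf7, Nemp2 and Runx2 (0.06 to 0.07), Eomes to Tspan32, Map4k2 and Gm8995 (0.09 to 0.12) and Ikzf2 to Stk26, Pitpnm1 and Skil (0.04 to 0.05). Gata3 was nearest to Trim67, Fah and Hoxb3os (0.03 to 0.07), and Tbx21 to the immunoglobulin segments Igkj2, Igkv12-44 and Igkj3 (0.09 to 0.13). Trim67 and Igkj3 had WT means of 0.620 and 0.293 CPM, where the added 0.5 narrows differences, and their log2 fold changes of 1.88 and 2.66 exceeded those of Gata3 and Tbx21. These distances describe 6 libraries that share the same genotype difference. Profiles were centred over all 6, so genes with unlike KO minus WT changes lie apart even where animals within a group vary alike.

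T cell genes moved with the lineage factors. Of 18 general T cell genes 17 rose, and the median of the 18 log2 fold changes was 2.77, against 28.0% higher among all genes. Summed, they stood at 316, 128 and 264 CPM in WT and 1397, 694 and 1732 CPM in KO, the same library order as Tcf7 in both groups. The CD3 chain genes Cd3d, Cd3e, Cd3g and Cd247 rose by 2.64 to 2.79 on the log2 scale, the helper coreceptor gene Cd4 by 2.27, and the cytotoxic coreceptor genes Cd8a and Cd8b1 by 2.83 and 2.83. Trbc1, a T cell receptor constant gene, did not pass (log2 fold change 1.62, edgeR adjusted p = 0.0676).

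Each lineage factor was therefore also expressed relative to the summed counts of the 4 CD3 chain genes in the same library, a ratio that does not depend on scaling between libraries. Tcf7 lay closest to the CD3 genes in its difference: log2 ratios were -0.25, 0.06 and -0.21 in WT and -0.04, -0.28 and -0.02 in KO, a KO minus WT difference of 0.02. Bcl11b differed by 0.38 and Lef1 by 1.0, both with overlapping groups (two-sided exact permutation p = 0.20 each). The Lef1 difference rested on WT replicate 2, whose log2 ratio of -4.26 stood apart from -2.12 and -2.11, and without that library it was 0.29.

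For 5 of the 9, every KO library lay below every WT library in this ratio, which was also so for 88.4% of all genes tested, where the median difference was -2.76. Ikzf2 had log2 ratios of -1.26, 0.04 and -1.26 in WT and -2.82, -2.23 and -3.12 in KO, a difference of -1.90. Gata3 differed by -1.30, Tox by -1.20, Eomes by -0.64 and Foxp3 by -0.28. Tbx21 differed by -0.86 with overlapping groups. With 3 against 3 libraries the exact permutation p cannot go below 0.10, which these 5 reached, and over the 13 ratios computed the Benjamini-Hochberg adjusted p was 0.186. Set against Cd4 alone, the differences were 0.19 for Foxp3, 0.50 for Tcf7, 0.85 for Bcl11b, 1.48 for Lef1, -0.17 for Eomes, -0.38 for Tbx21, -0.73 for Tox, -0.82 for Gata3 and -1.42 for Ikzf2, so the sizes depended on the denominator and Foxp3 had no settled direction. The difference from the CD3 genes also moved by over 1.5 times for Foxp3 without WT replicate 3 (-0.18), for Tox without WT replicate 2 (-0.70), and for Tbx21 without WT replicate 2 (-0.38), WT replicate 3 (-1.32) or KO replicate 2 (-1.29). In WT replicates 1, 2 and 3 the 18 general T cell genes summed to 316, 128 and 264 CPM. Ikzf2 (19.6, 15.7 and 16.5 CPM) and Tox (5.64, 5.46 and 5.27 CPM) varied less over these libraries. Whether cells other than T cells hold part of the Ikzf2 and Tox RNA was not tested. Their falls against the CD3 genes are therefore not shown to be traits of T cells.

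**Figure D2:**
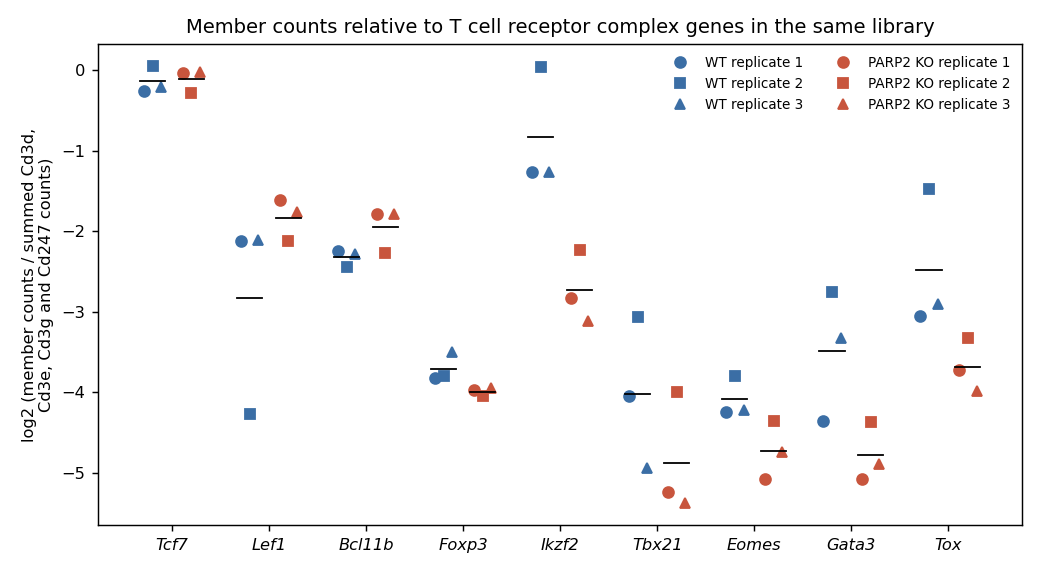
Log2 ratio of each lineage factor's counts to the summed counts of Cd3d, Cd3e, Cd3g and Cd247 in the same library, for 3 WT (blue) and 3 KO (red) libraries, with group means as black bars. The libraries of Tcf7, of Bcl11b and of Foxp3 each lie close together, at a different level for each gene. For Ikzf2, Tox, Gata3, Eomes and Foxp3 every KO library lies below every WT library. WT replicate 2 is the highest WT library for all of these but Foxp3.

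Among pairs of lineage factors, the log2 ratio of Tcf7 to Tox was 2.80, 1.54 and 2.69 in WT and 3.69, 3.05 and 3.97 in KO. The groups did not overlap and differed by 1.23. The log2 ratio of Tcf7 to Lef1 was 1.87, 4.32 and 1.90 in WT and 1.58, 1.84 and 1.75 in KO, a difference of -0.98 that was -0.17 without WT replicate 2 (exact permutation p = 0.10 for both pairs with all libraries, adjusted p = 0.186). Tbx21 over Gata3 differed by 0.44 and Foxp3 over Tcf7 by -0.31, with overlapping groups (exact permutation p = 0.60 and 0.20). Without WT replicate 3 these differences were -0.10 and -0.16, and Tbx21 over Gata3 was 0.86 without WT replicate 1 and 0.21 without KO replicate 2. The interval that 3 libraries allow is wide, and a p above the threshold does not show equal proportions.

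Beyond the 9, 38 other regulators of T cell lineages were described. Of these 29 rose, 3 fell and 6 were not called, with a median log2 fold change of 1.05, against 28.0% higher and 25.0% lower among all genes. When each library was left out, 21 to 28 of them rose, against 20% to 28% of all genes. Satb1, a chromatin organiser of T cells, and Themis, a signalling protein of T cell selection rather than a transcription factor, rose by 2.80 and 3.04 on the log2 scale. The lymphocyte factors Ikzf1 and Ikzf3 rose by 2.47 and 2.98, and both are expressed in B cells as well. Foxo1, which keeps naive T cells quiescent, rose from 48.0 ± 8.35 to 156 ± 29.0 CPM, and Irf4, induced by antigen receptor signals, from 18.6 ± 3.65 to 96.6 ± 17.9 CPM (SD, n = 3 per genotype), with edgeR adjusted p-values of 0.00227 and 0.00201. B cells express Foxo1 and Irf4 too. Zeb2, a factor of effector T cells and other cell types, rose by 1.13. Id2, Gfi1 and Nr4a2 fell by 0.61, 0.77 and 1.51. Each of the last 3 is also expressed outside T cells, and Nr4a2 had 14.0, 13.8 and 16.0 CPM in WT and 5.35, 6.85 and 3.24 CPM in KO. Scaled by library totals alone, 1 of the 38 was lower and 33 were higher, the median log2 fold change of all genes moved from 0.02 to 0.42, and 42.3% of all genes were higher and 12.2% lower.

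**Figure D3:**
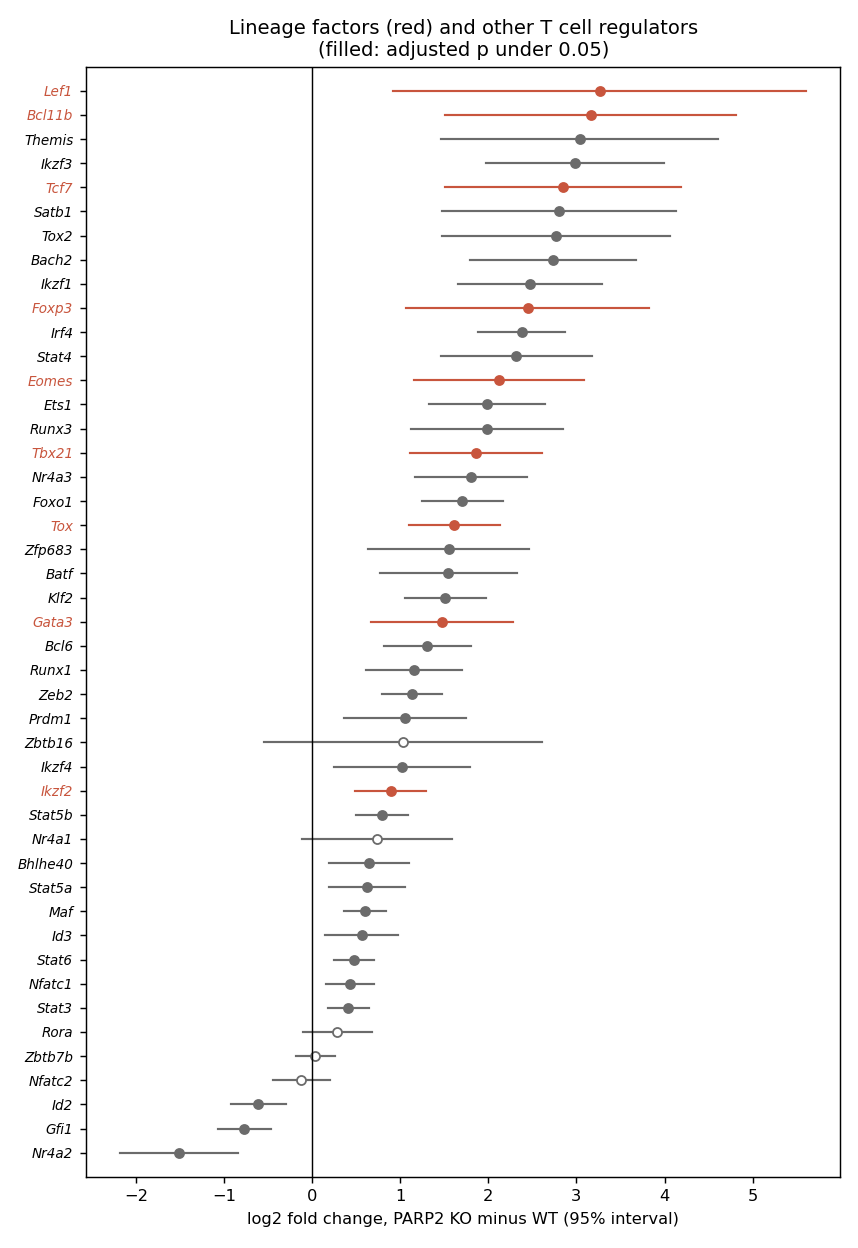
Log2 fold change (KO minus WT, linear axis) with its 95% interval for the 9 lineage factor genes (red) and 36 of the 38 other T cell regulators (grey), filled where the edgeR adjusted p was under 0.05. All 9 red points lie to the right of 0, from 0.89 for Ikzf2 to 3.26 for Lef1, which has the widest interval.

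The genes that go with each lineage were read against the same background, 28.0% of all genes tested higher and 25.0% lower. Of 8 genes of naive and recirculating T cells 6 rose, among them the survival cytokine receptor gene Il7r by 2.30, the egress receptor gene S1pr1 by 2.16 and its activator Klf2 by 1.51 (log2 scale). Endothelium expresses S1pr1 and Klf2 as well. Actn1 and Igfbp4, with WT means of 211 and 442 CPM, were not called (log2 fold changes 0.037 and 0.003). Of 12 regulatory T cell genes all 12 rose, those with the smallest p being the interleukin 2 receptor gene Il2ra (log2 fold change 2.22), the costimulatory receptor gene Icos (2.96), Tnfrsf18 (1.93) and the inhibitory receptor gene Ctla4 (2.88). Without a library the count of regulatory T cell genes was 10 to 12. The lowest was Lrrc32 (0.61), which endothelium expresses as well.

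All 9 Th1 genes rose, with Cxcr3, a chemokine receptor of Th1 cells, going from 4.60 ± 0.548 to 12.9 ± 2.01 CPM (SD, n = 3 each). The interferon gene Ifng rose by 1.72 on the log2 scale but stayed at or below 0.437 CPM in every library. Of 8 Th2 genes only 3 could be tested, and 2 rose: the skin homing receptor gene Ccr4 (log2 fold change 2.64) and Il17rb (0.52). Il1rl1 was not called (0.41, edgeR adjusted p = 0.404). Il4, Il5, Il13, Ptgdr2 and Areg had at most 20 counts in any library, too few for a test. When any library was left out, 1 of the Th2 genes was called.

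Of 5 tested Th17 genes 2 rose, against 28.0% of all genes tested, so so small a list stands little apart from the background. The chemokine receptor gene Ccr6, also found on B cells, rose by 3.15 and the interleukin 23 receptor gene Il23r by 1.97 on the log2 scale. Rora was not called (0.29, edgeR adjusted p = 0.174). Il17a and Il17f had at most 3 counts in any library. The count of Th17 genes called higher was 1 without WT replicate 1, WT replicate 2 or KO replicate 1, and all 5, Rora included, when libraries were scaled by their totals alone. With that scaling 42.3% of all genes were higher.

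Of 11 exhaustion genes 7 rose and 2 fell, against 28.0% higher and 25.0% lower among all genes tested. Cd160 rose by 3.36, the checkpoint gene Lag3 by 2.16, Nr4a3 by 1.80 and Havcr2 by 0.94 (log2 scale). Entpd1, which is abundant outside T cells, and Nr4a2 fell, by 0.47 and 1.51, and the count of falls was 1 without WT replicate 1, WT replicate 2, KO replicate 1 or KO replicate 3, and 1 when scaled by library totals alone. All 10 natural killer genes rose as well. The receptor gene Ncr1 had 1.84, 1.59 and 0.999 CPM in WT and 6.81, 5.62 and 6.48 CPM in KO, and the 10 genes summed to 43.0, 33.1 and 40.2 CPM in WT and 197, 131 and 186 CPM in KO. The part of natural killer cells in the levels of Tbx21, Eomes and the Th1 genes was not tested.

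Markers of other cells also moved with genotype, to be read beside the 28.0% of all genes tested that were called higher. All 10 B cell genes rose, with sums of 445, 161 and 208 CPM in WT and 1552, 1621 and 2236 CPM in KO, so that KO replicate 2, the lowest KO library in T cell genes, was not the lowest in B cell genes. Of 8 lymph node stroma genes 5 rose, with sums of 115 to 178 CPM in WT and 417 to 1135 CPM in KO. In replicates 2 and 3 of both groups the sums were carried largely by Glycam1 and Cxcl13, but not in replicate 1 of either group. Neither gene was called (edgeR adjusted p = 0.148 and 0.254). Glycam1 had 12.5, 0.645 and 113 CPM in WT and 96.6, 365 and 759 CPM in KO, and Cxcl13 had 31.0, 91.3 and 18.8 CPM in WT and 88.4, 111 and 62.0 CPM in KO. Madcam1, Ccl21a and Ccl19 rose by 3.05, 2.12 and 1.72 on the log2 scale. Ccl21a had 32.5, 8.42 and 18.3 CPM in WT and 92.5, 51.0 and 113 CPM in KO. Ltb and Lta, which lymphocytes express, rose by 2.47 and 2.22, so their rise is not specific to stroma. Of 8 thymus genes 3 rose, Dntt, Cd1d1 and Aire, by 3.04, 2.74 and 1.52 on the log2 scale, and Ccl25 was not called. Dntt had 6 to 13 counts in WT and 55 to 178 in KO, and Aire had 9 to 30 and 57 to 100. Rag1, Rag2, Ptcra and Psmb11 had at most 21 counts in any library, too few for a test. All 9 fat cell genes and 6 of 7 endothelial genes rose, with sums of 554 to 1411 and 299.7 to 342 CPM in WT and 6924 to 8765 and 769.8 to 885 CPM in KO. Of 10 acinar genes 0 were called by edgeR, although 9 lay below WT in every KO library, against 33.7% of all genes tested. Among other cells 3 of 6 duct genes, 3 of 7 fibroblast genes and 3 of 5 tested neuronal genes fell, against 25.0% of all genes. The neuronal falls leaned on WT replicate 3, where Nefl, Th and Snap25 had 259, 782 and 631 counts. These genes had 10 to 87 counts in WT replicates 1 and 2 and 1 to 23 in KO. At an unadjusted edgeR p under 0.05 the count of lower acinar genes was 1. At an adjusted p under 0.05 it was 2 by DESeq2, 2 by limma-voom and 0 by limma on the deposited log2 values. The part of each of these tissues in the lineage factor differences was not tested.

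**Figure D4:**
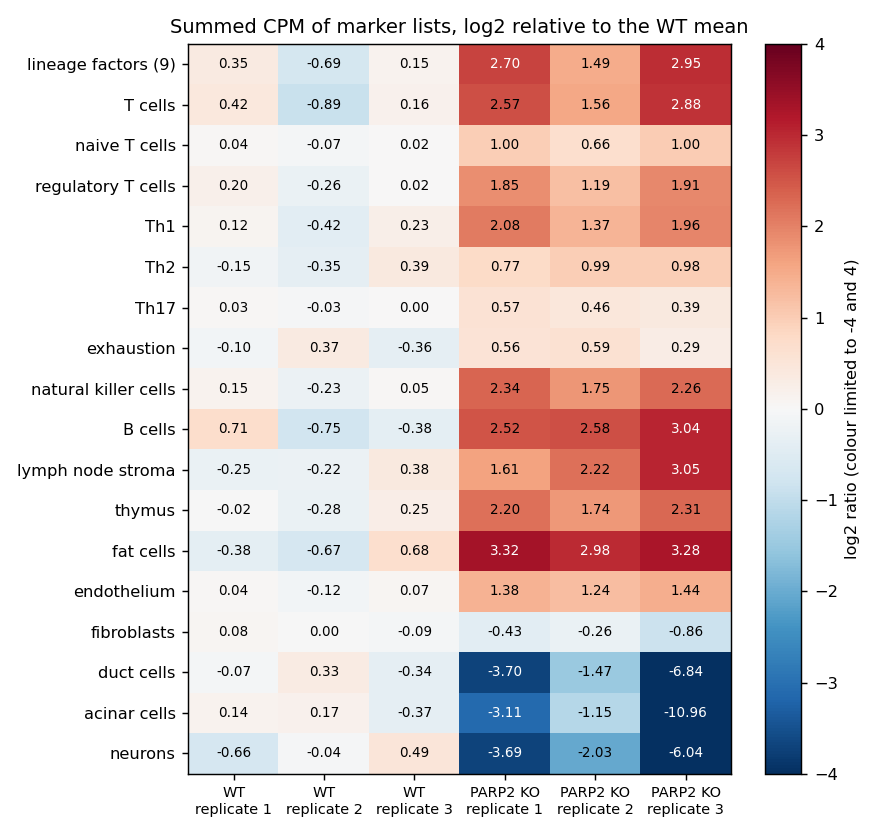
Summed CPM of the lineage factors and of each marker list in the 6 libraries, as log2 relative to the WT mean of the list, with the colour scale ending at -4 and 4. The lineage factors stand at 2.70, 1.49 and 2.95 in KO replicates 1, 2 and 3, and the T cell list at 2.57, 1.56 and 2.88, while the acinar list stands at -3.11, -1.15 and -10.96. The lineage factor sum is weighted to Tcf7, which held 215 of its mean of 430 CPM in KO. It therefore does not show how each lineage factor moved.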

How the data were processed

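Transcripts were measured by RNA sequencing in 6 pancreas samples, 3 WT and 3 KO, each a different animal. The authors deposited raw counts per gene, and also log2 values that equal log2(counts divided by a size factor, plus 1). The submitters' processing notes name FastQC 0.11.5, STAR 2.5.3a, DESeq2 1.28.1 and the GRCm38 (mm10) genome. The counting program, annotation release and strand setting were not given in the sources used here.

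The deposited counts were tested with edgeR 4.0.16 in R 4.3.3 (TMM scaling, filterByExpr, robust quasi-likelihood F-test, Benjamini-Hochberg over 17652 genes, threshold 0.05). Ratios were log2(counts + 0.5) differences within a library, with exact permutation tests. Alternatives were other scalings and filters, DESeq2 1.42.0, limma 3.58.1 (voom, and the deposited log2 values), sex as a term, other ratio denominators, and leaving out each library. The edgeR step was tested on simulated data. Replicates were distinct libraries: within groups the chi-square per degree of freedom was 29.1 to 461. Exon lengths and overlaps came from GENCODE vM21, whose gene starts and ends matched all 29721 counted genes.

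Genes named were the 9 lineage factors, up to 4 tested genes of smallest p in each list, Parp2, and the 3 genes nearest to each factor; other named genes were chosen after their values were seen. The 9 genes and all lists were chosen with earlier results of these data known. Foxn1 and Il22, also listed, are not analysed here. Some genes that the rule names, and 1 ratio denominator, are not reported here.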

Additional observations from a re-analysis of the deposited data

How the results depend on the processing

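Direction held for all 9 lineage factors under each of 15 alternatives, and of 135 gene and alternative pairs 6 lost the call, all of them for Lef1. With no count filter 16.5% of all genes were higher and 13.2% lower. Scaled by library totals alone, 1 of the other regulators was lower in place of 3, 5 Th17 genes were higher in place of 2, and 1 exhaustion gene was lower in place of 2. With that scaling 42.3% of all genes were higher and 12.2% lower. Leaving out each library gave 1 to 1 Th2 genes higher (2 with all), 1 to 3 Th17 genes higher and 1 to 2 exhaustion genes lower. The Foxp3 ratio difference, -0.28 against the CD3 genes, was 0.19 against Cd4, and the other 8 ratio differences kept their direction with that denominator. Leaving out each library, the Tcf7 ratio difference ran from -0.034 to 0.12 and that of Tbx21 to Gata3 from -0.10 to 0.86. The cause of these moves was not tested. No paired analysis was possible because the labels give no replicate numbers shared between the groups. With 3 animals a group, and KO replicate 3 nearly without acinar transcripts, the spread within KO limits these values.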
